A study of Mus musculus with 2 samples.

Results

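The genes Vim, Nes, Gfap, Krt8 and Krt18 were chosen by name, 5 of 16301 genes that 3 or more kept cells held, because they encode the intermediate filaments usually used to recognise glia, neural progenitors and simple epithelia. They were followed in Sox1-GFP+ cells sorted by flow cytometry from mouse tail and from mouse brain, in 1 single-cell RNA-seq library of each tissue. Both groups carried the same Sox1-GFP reporter, a GFP inserted at the gene of the neuroepithelial transcription factor Sox1, and received no treatment named in the labels. Per the study's methods, the tail cells were postnatal, the brain cells were adult and both tissues were dissociated with trypsin. Tissue, age and library therefore differed together and cannot be told apart, and there was no replicate, so no test was run. Every interval below is an exact 95% interval that covers counting error only. Kept were 1964 tail cells and 7988 brain cells, those with over 200 genes, below 4000 genes and a mitochondrial share below 40%. A molecule here is a sequenced RNA counted once by its molecular identifier. The median kept cell held 1282.5 molecules in tail and 696 in brain, so each share of cells is given after every cell was thinned at random to 400 molecules (1945 tail and 7270 brain cells), with the unthinned share beside it where the difference matters. Levels are CPM, the molecules of a gene summed over the cells of a group and scaled to 1000000 molecules. The libraries had 18 kept cell barcodes in common.

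Intermediate filaments are rope-like polymers of the cytoskeleton. Vimentin (Vim) can form them alone and is made by mesenchymal cells, radial glia, ependymal cells and immature astrocytes. Nestin (Nes) needs a partner such as vimentin and is the classical marker of dividing neural progenitors. GFAP (Gfap) is the filament of mature astrocytes and rises when they become reactive. Keratin 8 (Krt8, type II) and keratin 18 (Krt18, type I) polymerise only as a pair of both types and are the filaments of simple epithelia such as gut lining.

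In mouse genome GRCm38 with the GENCODE vM21 annotation, Vim (ENSMUSG00000026728) lies on the plus strand of chromosome 2 at 13573927 to 13582826, Nes (ENSMUSG00000004891) on the plus strand of chromosome 3 at 87971078 to 87980451, and Gfap (ENSMUSG00000020932) on the minus strand of chromosome 11 at 102887336 to 102900912. Krt8 (ENSMUSG00000049382) lies on the minus strand of chromosome 15 at 101996698 to 102004482. Krt18 (ENSMUSG00000023043) lies on the plus strand of the same chromosome at 102028180 to 102032027. The keratin genes are neighbours that point away from each other, with 23697 bases and 0 annotated genes wholly between them. All 5 are protein-coding. A processed pseudogene, Krt8-ps, shares 941 aligned bases with Krt8 at 98.6% identity and another, Gm5200, shares 1267 with Krt18 at 90.4%. The non-coding gene Gm36026 overlaps the start of Krt8 on the other strand and had 1 molecule in each library. Neither pseudogene is listed in the files, and how reads from such copies were counted is not given in the sources used here.

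The promoter windows below run from 250 bases before to 50 bases after the RefSeq gene start, in build GRCm38.p6, written 5′ to 3′ on the gene's strand. The RefSeq starts differ from the GENCODE starts given above, and the Vim and Gfap windows lie wholly inside the GENCODE spans of these genes. They are shown for Vim and Gfap, which lay on opposite sides between the libraries, and for Krt8 and Krt18, which were found in the same cells. Capitals mark matches on either strand to the TATA box letters TATAAA, the box known as CCAAT, the GC box letters GGGCGG and the AP-1 letters TGANTCA.
Vim, chr2:13574061-13574360, plus strand: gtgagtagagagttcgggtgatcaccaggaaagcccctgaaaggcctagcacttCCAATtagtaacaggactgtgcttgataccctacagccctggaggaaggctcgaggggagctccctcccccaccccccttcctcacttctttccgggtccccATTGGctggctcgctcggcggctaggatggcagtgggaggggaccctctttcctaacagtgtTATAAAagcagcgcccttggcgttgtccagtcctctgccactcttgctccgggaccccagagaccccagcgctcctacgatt
Gfap, chr11:102897151-102897450, minus strand: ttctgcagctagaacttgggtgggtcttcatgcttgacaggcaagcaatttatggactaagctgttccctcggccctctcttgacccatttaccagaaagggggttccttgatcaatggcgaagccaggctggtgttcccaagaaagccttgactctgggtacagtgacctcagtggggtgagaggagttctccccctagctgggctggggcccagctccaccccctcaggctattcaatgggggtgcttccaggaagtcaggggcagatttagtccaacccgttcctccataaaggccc
Krt8, chr15:102004293-102004592, minus strand: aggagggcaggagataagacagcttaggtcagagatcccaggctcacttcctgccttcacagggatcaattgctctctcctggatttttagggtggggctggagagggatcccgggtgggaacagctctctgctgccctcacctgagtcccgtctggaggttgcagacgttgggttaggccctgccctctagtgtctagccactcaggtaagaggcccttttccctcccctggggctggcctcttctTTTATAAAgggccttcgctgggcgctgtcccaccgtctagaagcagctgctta
Krt18, chr15:102027966-102028265, plus strand: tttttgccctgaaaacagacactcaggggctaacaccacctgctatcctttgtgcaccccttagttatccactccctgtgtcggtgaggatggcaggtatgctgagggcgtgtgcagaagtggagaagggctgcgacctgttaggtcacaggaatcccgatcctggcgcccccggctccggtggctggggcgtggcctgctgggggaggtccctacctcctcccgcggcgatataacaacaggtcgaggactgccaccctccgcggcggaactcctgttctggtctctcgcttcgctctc

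The Vim window held TATAAA starting 32 bases before the RefSeq gene start and CCAAT matches on either strand, starting 196 and 94 bases before it. Among 27025 windows of this length, 14.2% held TATAAA and 37.9% held CCAAT. The Krt8 window held TATAAA on both strands, in overlapping matches next to the RefSeq start. The Nes window, not printed, held GGGCGG on the minus strand starting 73 and 62 bases before the start, a motif in 35.9% of windows. The Gfap and Krt18 windows held none of the 4 motifs. TGANTCA, in 7.93% of windows, was in none of the 5. The matches describe these letters and say nothing of the factors that may bind there.

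Vim was higher in the tail library and Gfap in the brain library. Vim had 6665 molecules in tail and 1553 in brain, a level of 2366 CPM (2309 to 2423) against 242 CPM (229.9 to 254.1), 9.79-fold higher in tail (9.26 to 10.3). It was found in 50.5% of thinned tail cells (48.2 to 52.7%) and 6.396% of thinned brain cells (5.84 to 6.98%). The intervals did not overlap, and the unthinned shares, 71.5% and 10.1%, kept the same order. Gfap went the other way, with 22 molecules in tail and 544 in brain. Its level was 7.81 CPM (4.89 to 11.8) in tail and 84.7 CPM (77.7 to 92.1) in brain, 10.8-fold higher in brain (7.09 to 17.4). It was found in 5 of 1945 thinned tail cells (0.257%, 0.0835 to 0.599%) and 169 of 7270 thinned brain cells (2.32%, 1.99 to 2.70%). Nes was low in both, with 170 molecules in tail (60.3 CPM, 51.6 to 70.1) and 83 in brain (12.9 CPM, 10.3 to 16.02), 4.67-fold higher in tail (3.57 to 6.15). Its thinned shares were 2.06% (1.47 to 2.79%) and 0.371% (0.245 to 0.540%).

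The keratins were rarer still. Krt8 had 51 molecules in 7 tail cells and 1 molecule in brain, a ratio of 116 (19.96 to 4683). Krt18 had 15 molecules in 7 tail cells and 3 molecules in 3 brain cells, a ratio of 11.4 (3.23 to 61.4). Their wide intervals come from the few brain molecules.

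A gene was called 4-fold apart when its whole ratio interval lay beyond 4-fold, among 11347 genes with at least 50 molecules over both libraries and outside the mitochondrial genome. Of these genes 720 (6.35%) were called higher in tail and 529 (4.66%) higher in brain. Of the 5 filament genes 4 had enough molecules, and of these Vim and Krt8 were called higher in tail, Gfap higher in brain and Nes neither, since its interval crossed 4. The median log2 ratio of tail over brain was 2.76 over these 4 genes and 0.28 over all genes. Scaling by TMM factors in place of total molecules lowered every log2 ratio by 0.36 and gave 578 genes higher in tail and 663 higher in brain. Vim was then 7.62-fold and Nes 3.64-fold higher in tail, and Gfap 13.9-fold higher in brain.

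Of 23 other intermediate filament genes, 11 had enough molecules, and 8 of these were called higher in tail, where 6.35% of all genes were: the epidermal keratins Krt1, Krt5, Krt10, Krt14, Krt15 and Krt17, alpha-internexin (Ina) of neurons and lamin A/C (Lmna) of the nuclear lamina. Cells with keratinocyte markers numbered 95 in tail and 1 in brain, and their part in the result was not tested. None of the 11 was called higher in brain, and their median log2 ratio was 3.73 with genes at 0 set to the limit that a count of 0 allows. Krt5 and Krt14, the keratin pair of basal epidermis, had the largest bounds, at least 1075-fold and 720-fold higher in tail against 3 counts in brain. On the brain side the largest bounds were those of the cytolinker Macf1, which links actin and microtubules, at 3.09-fold higher in brain (2.82 to 3.39), and synemin (Synm), a large filament protein that joins vimentin, at 4.51-fold (2.08 to 11.6), and neither was called. Of 6 cytolinkers, which tie filaments to junctions and to the other cytoskeletons, 4 had enough molecules. Desmoplakin (Dsp) of desmosomes was called higher in tail, while Plec, Dst and Macf1 stayed within 4-fold.

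**Figure D1:**
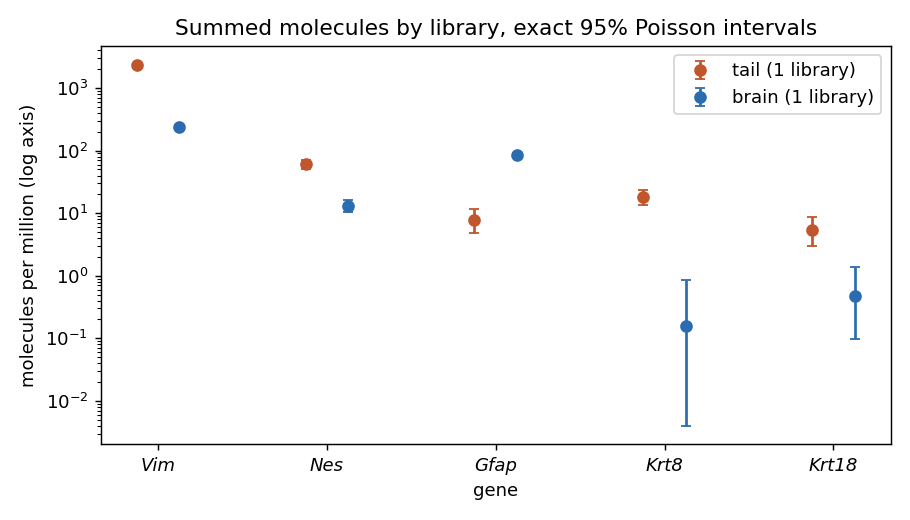
Level of each filament gene in the tail and brain libraries in CPM on a log axis, with exact 95% Poisson intervals. Vim is 9.79-fold higher in tail and Gfap 10.8-fold higher in brain, while the brain keratin values rest on 1 and 3 molecules.

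Without thinning, Vim also differed in how it was spread over cells. The tail cells were deeper and had the higher Vim level, and the part of both in this spread was not tested. Of the 1404 tail cells with Vim, 18.3% held 1 molecule, and 417 cells with 6 or more held 60.8% of the tail's Vim molecules, up to 57 in a cell. In brain 56.8% of the 808 cells with Vim held 1 molecule, and the highest cell held 17. Nes stayed at 1 to 3 molecules in every cell where it was found, with 1 molecule in 87.2% of such tail cells and 90.8% of such brain cells. Gfap in brain was uneven, since 76.8% of its 310 cells held 1 molecule, while 17 cells with 6 to 24 molecules held 30.3% of all Gfap molecules. Without those 17 cells Gfap was still 7.58-fold higher in brain. The tail's 22 Gfap molecules lay in 17 cells with at most 3 each.

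**Figure D2:**
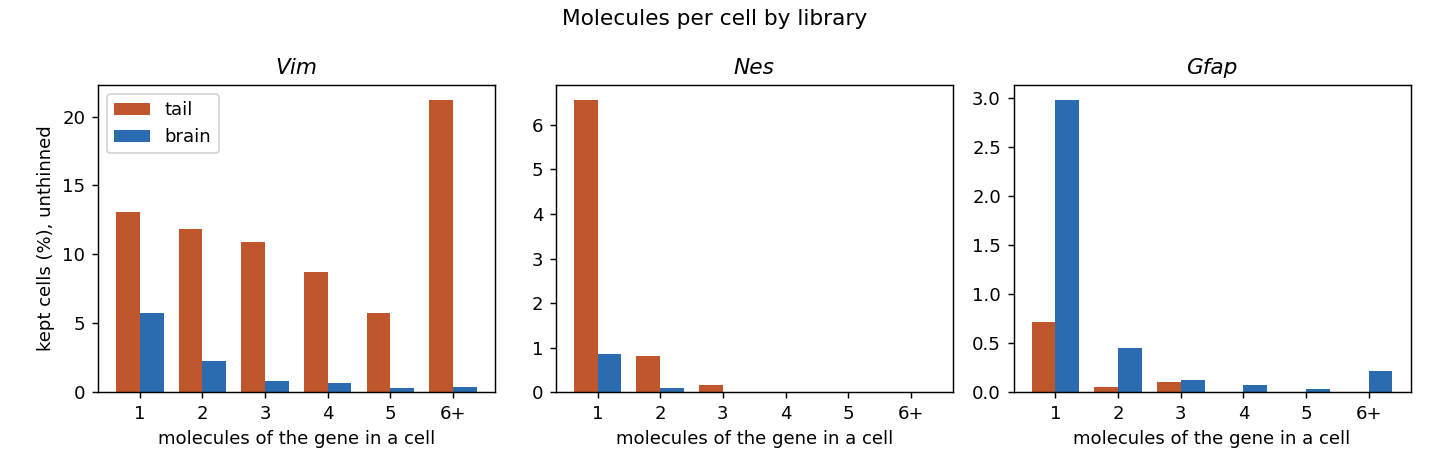
Percent of kept, unthinned cells that hold 1, 2, 3, 4, 5 or at least 6 molecules of Vim, Nes or Gfap in each library (bars, from 0; each panel has its own scale). Cells with 6 or more molecules number 417 for Vim in tail, 29 for Vim in brain and 17 for Gfap in brain.

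Free RNA can place a molecule in a cell that does not make it, so shares were set beside cell types that should lack the gene, each cell being placed by at least 2 genes of a marker list. In tail, Vim was in 4.26% of 94 thinned cells with keratinocyte markers (1.17 to 10.5%, median depth 2082 molecules) and in 0 of 26 with simple epithelium markers, which allows 11.5%. Gfap was in 0 of 94 tail keratinocyte-type cells and 0 of 218 tail fibroblast-type cells. In brain it was in 2 of 1754 cells with neuroblast or neuron markers (0.114%, 0.0138 to 0.411%, median depth 689 molecules) against 168 of 5574 with astroglia markers (3.01%, 2.58 to 3.50%, median depth 713 molecules), at like depth. Brain cells with oligodendrocyte markers, 54 after thinning, had Gfap in 3 (5.56%, 1.16 to 15.4%) and Vim in 2. Their levels were 307 CPM for Gfap (26 molecules) and 295 CPM for Vim (25 molecules), above the 84.7 and 242 CPM of the whole brain library. Few cells held these molecules. Without thinning Vim was in 5.36% of the 56 cells, below the 10.1% of the library. Gfap was in 10.7% of them, above the 3.88% of the library. Nes was in 0 of 94 tail keratinocyte-type cells, which allows 3.19%, more than its share in the whole tail library, and in 0 of 54 brain oligodendrocyte-type cells.

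Cells were next grouped by at least 2 molecules of a marker: Slc1a3 (the glutamate transporter of astroglia), Igfbp5 (a secreted binding protein abundant in tail), Tmem212 (of ciliated ependymal cells), Top2a (of dividing cells), Col1a1 (of fibroblasts) or Stmn2 (of neurons). The groups overlap. In tail 387 of 408 Slc1a3-marked cells were also Igfbp5-marked.

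In Slc1a3-marked cells Vim was 3424 CPM in tail and 197 CPM in brain, 17.4-fold apart (16.04 to 18.9), and Vim was in 70.4% of 406 thinned tail cells (65.7 to 74.8%) and 4.76% of 4601 thinned brain cells (4.16 to 5.42%). The 14 tail cells marked by Slc1a3 and by no other marker gave a ratio of 4.35, so that the size of this gap rests on cells that carried Igfbp5 as well. In Igfbp5-marked cells Vim was 3090 CPM in tail and 415 CPM in brain, 7.44-fold apart, with thinned shares of 64.3% and 14.7%. In Tmem212-marked cells Vim was 1737 CPM in 37 tail cells and 1903 CPM in 53 brain cells, a ratio of 0.913 (0.708 to 1.17), with thinned shares of 51.4% (34.4 to 68.1%) and 50.9% (36.8 to 64.9%). Of those tail cells 26 were also Igfbp5-marked, and the 10 marked by Tmem212 alone had a ratio of 0.478 (0.280 to 0.779). Marking by 1 molecule gave 0.802 (0.650 to 0.990), so that the level was higher in brain beyond counting error under both of these markings and not under the first. Tmem212-marked cells had the highest Vim level of any group in brain.

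Dividing and neuronal cells lay between or below these. In Top2a-marked cells Vim was 2350 CPM in tail and 477 CPM in brain, with thinned shares of 53.4% and 24.4%, and the ratio fell from 4.93 to 2.01 in cells with no other marker. The make-up of the Top2a-marked cells differed. Their fibroblast list stood at 19111 CPM in tail and 6.03 CPM in brain. Their keratinocyte list stood at 2968 and 27.1 CPM, and their neuroblast or neuron list at 225 and 5887 CPM. Of the 103 tail cells 20 were also Col1a1-marked. In Stmn2-marked cells Vim was 454 CPM in tail and 408 CPM in brain, a ratio of 1.11 (0.814 to 1.501). Tail cells with none of the 6 markers held 747 CPM. Marking by 1 molecule changed this, with 994 CPM in tail and 406 CPM in brain, a ratio of 2.45 (2.07 to 2.89), and 814 CPM in the unmarked tail cells. Of the 238 Vim molecules in these Stmn2-marked tail cells, 43 lay in 1 cell that held 55 Col1a1 molecules. Another 32 lay in a cell that held 34 of Col1a1, and each of these cells had 1 Stmn2 molecule. Col1a1-marked tail cells, the fibroblast side of the library, held the highest level, 3680 CPM, with Vim in 69.5% of 177 thinned cells. In brain the 36 Col1a1-marked cells held 797 CPM, a ratio of 4.62 (3.16 to 7.03). The ratio became 22.2 (16.8 to 29.97) with marking by 1 molecule and 26.0 with Col1a1 alone, where brain had 1 Vim molecule. Of these 36 brain cells 27 were also Slc1a3-marked. In the 36 cells the astroglia list stood at 27617 CPM and the fibroblast list at 6757 CPM. Vim lay in 4 of them, 1 of which held 17 of the 27 molecules. Igfbp5-marked cells, 1260 of the 1964 tail cells, held 77.2% of the tail's Vim molecules. The 177 Col1a1-marked cells held 22.3%, in groups that overlap. Fibroblast genes also led the 1404 tail cells with Vim, a set added after the data had been seen. Col6a2, Col3a1, Col1a2, Lgals1 and Lum had the highest bounds in them, and the fibroblast list was 10.1-fold higher than in the other tail cells (9.52 to 10.8), against 2.34-fold for the astroglia list. Cells of macrophage, keratinocyte and endothelial type, and cells with at least 2 molecules of Col1a1 or of Col3a1, were then left out (295 tail and 82 brain cells). The ratio of Vim over all cells stayed within its main interval. The brain cells left out included the 36 Col1a1-marked cells, in which the astroglia list stood higher than the fibroblast list.

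The Nes level in brain was 93.1 CPM in Tmem212-marked cells (7 molecules), 69.4 CPM in Top2a-marked cells (23 molecules in 198 cells) and 34.9 CPM in Stmn2-marked cells, but 2.92 CPM in Slc1a3-marked cells, with 12 molecules in 4891 cells. In tail its level was 87.1 CPM in Slc1a3-marked, 68.5 CPM in Igfbp5-marked and 58.9 CPM in Top2a-marked cells. It was 51.1 CPM in unmarked, 44.6 CPM in Col1a1-marked and 39.15 CPM in Stmn2-marked tail cells. Tmem212-marked tail cells had 1 Nes molecule (15.0 CPM). Slc1a3-marked cells were therefore 29.9-fold apart in Nes (15.7 to 61.7). Of the 50 Nes molecules of those tail cells, 48 lay in cells that were also Igfbp5-marked. In cells marked by both, Nes was 90.4 CPM in tail and 24.0 CPM in brain, where it had 5 molecules. Igfbp5-marked cells had a ratio of 2.05 (1.21 to 3.71). Top2a-marked cells, whose make-up differed between the libraries as given above, had a ratio of 0.849 (0.419 to 1.68). The ratio in Stmn2-marked cells was 1.12, and this and the Top2a ratio were not beyond counting error. In thinned brain cells Nes was in 3.05% of Top2a-marked cells (1.13 to 6.51%) and 0.0652% of Slc1a3-marked cells (0.0134 to 0.190%). In thinned tail cells it was in 4.85% of Top2a-marked (1.59 to 10.97%), 2.32% of Igfbp5-marked (1.56 to 3.31%) and 1.72% of Slc1a3-marked cells (0.696 to 3.52%), with overlapping intervals.

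Gfap lay mainly in astroglia-marked cells in brain. Slc1a3-marked cells, 4891 of the 7988 brain cells, held 77.0% of its brain molecules, at 102 CPM against 84.7 CPM over all brain cells. The 2225 cells without any marker held 20.8%, at 78.7 CPM. Igfbp5-marked brain cells had 190 CPM, and those marked by both Igfbp5 and Slc1a3 had 390 CPM with Gfap in 10.0% of thinned cells. Both levels rest largely on few cells. Of the 17 brain cells with 6 or more Gfap molecules 7 were Igfbp5-marked. These held up to 16 each, of 91 Gfap molecules in all 419 Igfbp5-marked brain cells. Gfap was in 0 of 197 thinned Top2a-marked brain cells, which allows 1.52%, and had 1 molecule in 560 Stmn2-marked cells. The 649 CPM of 36 Col1a1-marked brain cells rest on 3 cells, 1 of which held 17 of the 22 molecules along with 17 Vim and 11 Slc1a3 molecules. In tail all 17 cells with Gfap were Igfbp5-marked. The Gfap level in Slc1a3-marked cells was 8.35-fold higher in brain (4.02 to 20.9) and in Igfbp5-marked cells 14.4-fold higher (8.94 to 24.0), the latter falling to 3.97-fold (1.58 to 9.61) in cells with no other marker.

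**Figure D3:**
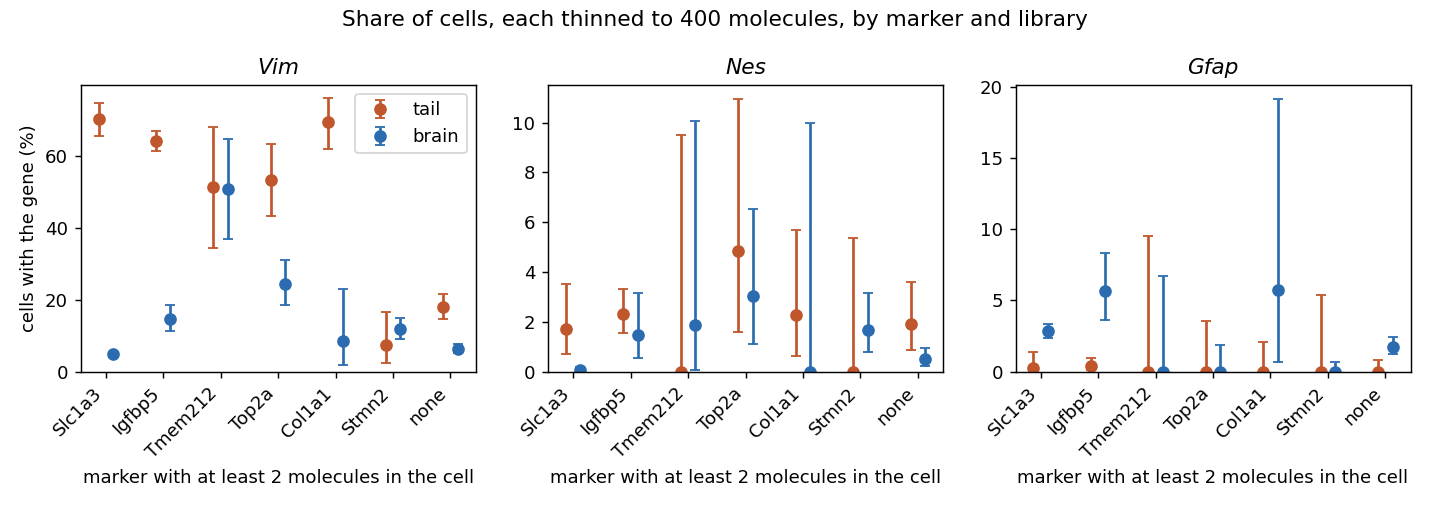
Share of thinned cells with Vim, Nes or Gfap among cells with at least 2 molecules of each marker, by library, with exact 95% intervals (each panel has its own scale). Vim is far apart between libraries in Slc1a3-marked cells (70.4% and 4.76%), while the shares in Tmem212-marked cells are 51.4% and 50.9%.

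The balance of the glial filaments shifted with the library. Of all Gfap and Vim molecules, Gfap made up 0.329% in tail (0.206 to 0.498%) and 25.9% in brain (24.1 to 27.9%). In Slc1a3-marked cells it was 0.355% in tail and 34.1% in brain. Within brain it was 3.38% in Tmem212-marked cells, 0.532% in Stmn2-marked cells and 0% in Top2a-marked cells, which had 158 Vim molecules and 0 of Gfap.

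Binning cells by how many of their 400 thinned molecules were the marker, a step added after the data had been seen, showed where Vim rose. In tail Vim was in 27.8% of 742 cells with 0 Igfbp5 molecules (24.6 to 31.1%), in 51.6% of cells with 2 to 3, in 67.7% with 4 to 7 and in 71.1% of 592 cells with 8 or more (67.3 to 74.7%). Nes in the same bins ran from 0.787% to 2.87%, with overlapping intervals. In brain Vim did not rise evenly with Slc1a3. It was in 9.92% of 2530 cells with 0 Slc1a3 molecules, in 2.98%, 2.67% and 2.83% of cells with 1, 2 to 3 and 4 to 7, and in 16.9% of 574 cells with 8 or more (13.9 to 20.2%). Gfap had no such step, with 2.44% of cells in the top bin (1.34 to 4.06%) and 3.26% in the bin of 4 to 7.

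The Slc1a3-rich brain cells with Vim also carried Gdf10, a secreted factor of the TGF-beta superfamily known in brain from the Bergmann glia of the cerebellum. Gdf10, named here after its values were seen as a leading gene of the cells with Gfap and Vim, was in 30.5% of the 574 cells with 8 or more Slc1a3 molecules and 5.60% of those with 4 to 7. Among the 574 cells, Vim was in 41.1% of the 175 with Gdf10 (33.8 to 48.8%) and 6.27% of the 399 without it (4.10 to 9.11%). The cells with Gdf10 were deeper before thinning, with a median of 1162 molecules against 787. Gfap was in 1.71% and 2.76% of the same cells, and Nes in 0 of 175 and 1 of 399. The homeobox-only protein gene Hopx was in 73.7% and 19.0%.

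**Figure D4:**
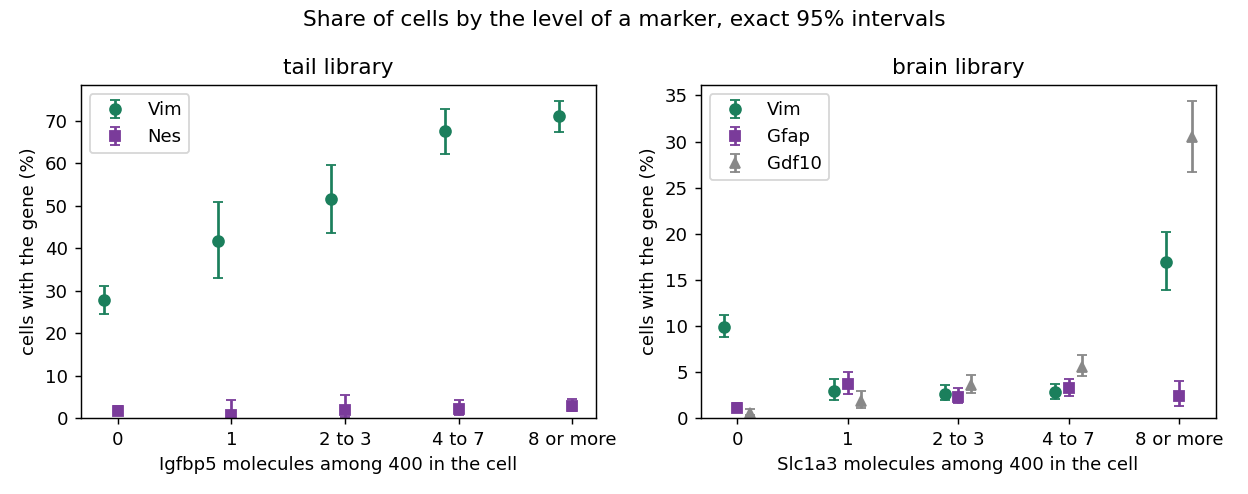
Share of thinned cells with a gene by the number of marker molecules among 400 in the cell, with exact 95% intervals: Vim and Nes by Igfbp5 in tail, and Vim, Gfap and Gdf10 by Slc1a3 in brain. Vim climbs with Igfbp5 to 71.1% in tail, while in brain it falls to under 3% and then reaches 16.9% with 8 or more Slc1a3 molecules, where Gdf10 is in 30.5%.

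Most cells held 1 of the 5 filament genes or fewer. Without thinning 65.7% of tail cells held 1, 7.28% held 2, 2 cells held 3 and 26.9% held 0. In brain 86.3% held 0, 12.6% held 1, 1.13% held 2 and 5 cells held 3. Vim was present in 7 of 27 thinned brain cells with Nes (25.9%, 11.1 to 46.3%) and in 6.32% of those without it (5.77 to 6.91%). It was present in 11.2% of 169 thinned brain cells with Gfap (6.906 to 16.999%) and 6.28% of the others (5.73 to 6.87%), intervals that nearly met. In tail Vim was in 52.5% of 40 thinned cells with Nes (36.1 to 68.5%) and 50.4% of those without. Without thinning it was in 125 of 148 cells with Nes (84.5%, 77.6 to 89.9%) and 70.4% of those without. With doublets left out and the molecules drawn anew, it was in 69.4% of thinned cells with Nes (51.9 to 83.7%). Only 7 tail cells were called doublets, so this share varied with the draw of molecules. Vim was in 4 of 5 thinned tail cells with Gfap. Nes and Gfap were together in 0 thinned cells of either library and in 3 unthinned cells of each.

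The genes that set these cells apart from the other cells of their library were taken by the lower bound of their ratio. In the 76 brain cells with Nes they were Ak7, Fam183b, Pclaf, Ccna2, Nusap1, Top2a, Pcp4l1, Mki67, Tpx2 and Cdk1, a mix of cell-division genes and, in Ak7, a gene of motile cilia. The summed list of 6 cycling genes was 7.26-fold higher in them, the ependymal list 9.18-fold higher, and the astroglia list stood at 0.132 of its level elsewhere. In the 808 brain cells with Vim the leading genes were Col3a1, Dmkn, Cfap77, Pcp4l1, Ak7, Tm4sf1, Kcnmb1, Aebp1, Armc3 and Fam183b. The lead of Col3a1 rests on 37 molecules in 2 of the 808 cells. Their ependymal list was 18.9-fold higher, their cycling list 6.63-fold higher and their astroglia list at 0.722. The cells with Vim were also deeper, with a median of 1062.5 molecules against 672 in the others, and the part of depth was not tested.

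In the 58 brain cells with both Gfap and Vim the leading genes were Myoc, S100a6, Tm4sf1, C4b, Hopx, Dao, Slc38a1, Tmem212, Gdf10 and Sept4. Of these cells 47 were Slc1a3-marked. Complement C4b belongs to the reactive glia list, which was 6.84-fold higher in them (4.92 to 9.30). This rests on 44 molecules, with Osmr and Steap4 of its 6 genes at 0. The ependymal list was 8.76-fold higher (6.44 to 11.7), from 51 molecules, and the 6 cycling genes had 0 molecules. Myocilin (Myoc), a secreted glycoprotein, stood apart further. It was found in 13 brain cells, of which 11 had Gfap and 7 had Vim, and in the 17 cells with 6 or more Gfap molecules, a set chosen after its values were seen, it had 35 of its 47 molecules. In the same 17 cells the reactive glia list was 17.5-fold higher (11.8 to 25.2) and the astroglia list 1.08-fold (0.986 to 1.18). The reactive glia value rests on 31 molecules, with Osmr, Timp1 and Steap4 at 0. Among 27 brain cells placed by the reactive glia list, Gfap reached 2216 CPM and was in 10 of 26 thinned cells (38.5%, 20.2 to 59.4%).

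In the 148 tail cells with Nes the leading genes were Cntn1, Olig1, Spry4, Hmmr, Ccnb1, Ccna2, C1qtnf3, Cenpf, Nov and Ptprz1. The oligodendrocyte-lineage factor Olig1 was 4.62-fold higher (2.69 to 7.70), the receptor phosphatase Ptprz1 of neural progenitors 2.32-fold and the mitotic cyclin Ccnb1 3.17-fold. Olig1 and Cntn1 each lay in 7 of the 148 cells, Nov in 6, Ccnb1 in 11 and Ptprz1 in 42. The Schwann list was 5.05-fold higher (3.31 to 7.59), from 37 molecules, and the astroglia list 1.04-fold (0.918 to 1.18). The cycling list was 1.61-fold higher in tail cells with Nes and 7.26-fold higher in brain cells with Nes, each against the other cells of its library. Cells with Nes were deeper, more so in brain. Their median was 1244.5 molecules against 694 in the other brain cells, and 1457.5 against 1266.5 in tail. The part of depth in this contrast was not tested.

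In tail the cells with Krt8 or Krt18 had epithelial markers and lacked Slc1a3. Krt8 or Krt18 was found in 8 tail cells, 0.407% of the library (0.176 to 0.801%), and 6 of these had both (0.305%, 0.112 to 0.664%). Krt8 had 17, 13, 7, 6, 5, 2, 1 and 0 molecules in the 8 cells, and Krt18 had 0, 1, 2, 1, 1, 5, 3 and 2 in the same order. All 8 had the epithelial adhesion gene Epcam, with 2 to 17 molecules, and 6 had the simple-epithelial keratin Krt19. In all, 14 tail cells had 2 or more Epcam molecules, and these 8 were among them. By the whole astroglia list, 24 of the 51 Krt8 molecules lay in cells with at least 2 of its genes (0.418% of 478 such cells had Krt8). All 8 lacked Vim, with 0 of 27650 molecules, whereas 71.8% of the other 1956 tail cells had it without thinning. A count of 0 in 8 cells allows a share of up to 37.5%. They also had 0 molecules of Slc1a3, Col1a1, Tmem212 and Top2a, and 0 of the epidermal keratins Krt5 and Krt14. They were deep cells, with a median of 3390 molecules against 1280 in the others.

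Within this handful the cells differed. The first cell, with 17 Krt8 molecules, held 31 of Krt19, 119 of Spink1, a secreted protease inhibitor, 74 of Lypd8, a protein of the colon surface, and 41 of Lgals4, a gut galectin, with 0 of Igfbp5 and Sox1. The second, with 13 Krt8 molecules, held 21 of Clca1, a goblet cell product. The other 6 held 3 to 18 molecules of Igfbp5 and 5 to 17 of the collagen gene Col8a1, and 5 of them held 1 to 16 of Chga, a protein of neuroendocrine granules. Sox1 itself was found in 4 of these 6, at 1 to 3 molecules. In the 6 cells with both keratins the leading genes included Clca1, Tspan1, Col8a1, Epcam, Hspb1, Spink1, Anxa4, Klf5 and Chga. The leads of Clca1, with 21 molecules, and of Spink1, with 40, each rest on 1 cell. The list of 7 simple epithelium markers was 59.5-fold higher in them (44.9 to 78.1), and the ependymal, fibroblast and cycling lists had 0 molecules.

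In brain 4 cells held a keratin, each 1 molecule, 1 of Krt8 and 3 of Krt18, and 0 cells held both. All 4 had Vim, with 2, 5, 4 and 8 molecules, and 3 had Tmem212, with 7, 4 and 1, while 0 had Epcam. The brain and tail keratin cells thus carried opposite partners, Vim without Epcam in brain and Epcam without Vim in tail, though the brain side rests on 4 molecules.

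**Figure D5:**
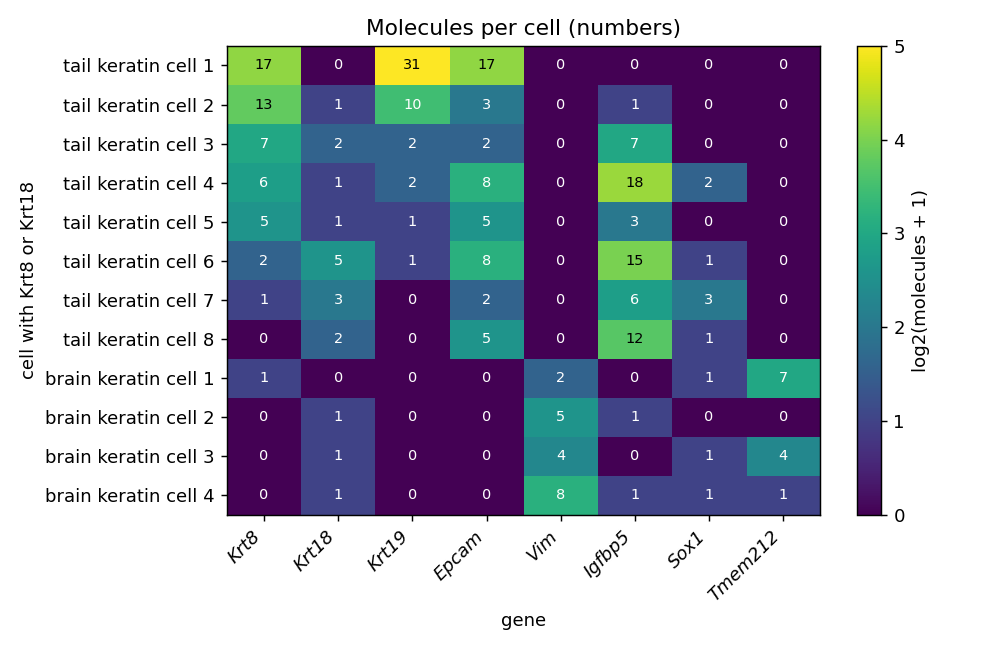
Molecules of 8 genes in each of the 8 tail and 4 brain cells with Krt8 or Krt18; numbers are molecules and colour is log2(molecules + 1). All 8 tail cells have Epcam and 0 Vim, and all 4 brain cells have Vim and 0 Epcam.

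The genes whose level followed each filament gene most closely were sought over 8 groups of cells marked by exactly 1 marker, 3 from tail and 5 from brain, on log2(CPM + 20). The groups share libraries, so the values are descriptions over 8 points. For Vim they were Zfp36 (Pearson's r = 0.993), an mRNA-decay factor of the immediate-early response, Fam102b (0.967) and Cavin1 (0.963), a coat protein of caveolae. For Gfap they were Tnfrsf19 (0.965), Acot11 (0.948) and Slc35a5 (0.933), and for Nes Usp9x (0.962), Ptges3 (0.945) and Eapp (0.928). The Gfap and Nes patterns rested on few molecules. Gfap had 313 molecules in the brain Slc1a3 group and at most 14 in any other group. Nes had 51 in the tail Igfbp5 group and at most 16 in any other. The keratin patterns rested on too few molecules to be followed in this way.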

How the data were processed

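Sox1-GFP+ cells of tail and brain (1 BD Rhapsody library each) were analysed. The deposited files hold molecule counts that the authors made, per the file headers, in release 1.10.1 of the BD Rhapsody WTA pipeline on GRCm38 and GENCODE vM19. The methods of the study give a later release. The counts corrected for identifier errors were used.

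Molecules were summed over kept cells, and CPM is relative to all molecules of those cells. Levels have exact Poisson, shares Clopper-Pearson and ratios conditional binomial intervals, all exact and at 95%. Where 0 molecules were found, up to 3 were allowed for. Cells were thinned without replacement to 400 molecules, which left out 19 tail and 718 brain cells. Scrublet in scanpy 1.11.5 (expected rate 0.05) called 7 tail cells (0.356%) and 67 brain cells (0.839%) doublets, which were kept. TMM factors came from edgeR 4.0.16, used for scaling alone. Scripts ran in Python 3.11.15 and R 4.3.3 and were tested on simulated data.

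The filament genes, marker lists and settings were chosen with earlier results of these data known. Named genes were the 5 filament genes, the 2 other filament or cytolinker genes with the largest bound each way, the 10 genes leading each of 5 sets of cells by bound (at least 20 molecules), and the 3 genes most like each filament gene. Of the leading genes of those 5 sets, 1 is not reported here. Further sets were added after the data had been seen, and of their leading genes a selection is named.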

Additional observations from a re-analysis of the deposited data

Results flagged for a closer look

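Filament molecules were also found in barcodes that the filters left out, 505 in tail and 4123 in brain, which no comparison above used. Vim stood at 199 CPM in the left-out tail barcodes and at 40.5 CPM in the left-out brain barcodes, below the kept cells of either library. Gfap stood at 80.9 CPM in the left-out brain barcodes, where its level in kept brain cells was 84.7 CPM. The source of these molecules was not tested.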

How the results depend on the processing

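No paired analysis was possible because each group has 1 library, and no library could be left out. The tail over brain ratio of Vim was 8.45 with mitochondrial molecules under 20%, 6.43 with more than 500 genes per cell, 7.62 with TMM factors, 7.72 with median-of-ratios factors and 13.0 as a mean over cells of CPM. That of Nes was 3.00 with more than 500 genes and 6.47 as a mean over cells. With at least 200 molecules 301 genes, and 1 of the 5 filament genes, were called higher in tail. At 2-fold the calls were 1494 in tail and 1029 in brain, and at 8-fold 396 and 253, with 0 filament genes called in brain. Without thinning the shares of tail cells were 71.5% for Vim, 7.54% for Nes, 0.866% for Gfap and 0.356% for Krt18, and those of brain cells 10.1%, 0.951% and 3.88% for the first 3. At 800 molecules per cell they were 64.9%, 4.50% and 0.790% in tail and 14.1%, 1.13%, 3.74% and, for Krt18, 0.0663% in brain. The brain share of Vim was 7.11% with mitochondrial molecules under 20% and 5.71% without doublets, and the tail share of Krt18 was then 0%. Vim in brain cells with Nes was 47.1% at 800 molecules and 50% without thinning, and with Gfap 18.7% without thinning. Marking by 1 molecule gave Vim ratios of 15.9 in Slc1a3-marked and 8.68 in Igfbp5-marked cells. Marking by exactly 1 marker gave 4.35 with Slc1a3, 0.478 with Tmem212 and 2.01 with Top2a. The 6 tail cells with both keratins became 2 with at least 2 molecules of each and 0 after thinning. The likeness of Eapp to Nes was -0.0265 over the 3 tail groups alone. Of the other results, 35 values moved. Marking by 1 molecule moved the Vim ratio in Stmn2-marked cells from 1.11 to 2.45 and in Col1a1-marked cells from 4.62 to 22.2, and Col1a1 alone gave 26.0. Vim in tail cells with Nes was 74.3% at 800 molecules, 84.5% without thinning and 69.4% without doublets. The rest were shares of cells without thinning or at 800 molecules. Among the main results 126 values stayed within their intervals or within 1.5 times the main count. Each thinned setting drew its molecules anew. The depth of the brain cells limits statements on Nes, and the few brain keratin molecules those on Krt8 and Krt18. The part of depth and composition in these shifts was not tested.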
